A study of Homo sapiens with 6 samples.

Results

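Chromosome 19 carries the densest collection of zinc finger genes in the human genome, and the expression of these genes was examined in Huh7 cells, an established human hepatoma cell line. The genes were taken from the table by 2 properties: a symbol made of ZNF, a number and at most 1 further letter, and a position on chromosome 19. Symbols that end in P, which mark pseudogenes, were left out. This gave 247 of the 50868 genes in the table, and 48.1% of the 513 genes with such a symbol on any chromosome. Of the 247 genes, 244 were protein coding in GENCODE 29 and 3 (ZNF285B, ZNF788 and ZNF807) were typed as pseudogenes.

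RNA was sequenced in 3 libraries of Huh7 cells that overexpressed hsa_circ_0098181 (replicates 1 to 3 of the overexpression group). The 3 other libraries came from control cells (replicates 1 to 3 of the NC group). The study calls this mRNA sequencing. hsa_circ_0098181 is a circular RNA formed from exons of SOX5. Both groups were transfected with a plasmid through Lipofectamine 2000 and taken at 48 h, and the groups differed in whether the plasmid carried the circle. All libraries came from 1 cell line. Whether those of a group came from separate cultures is not stated, so p-values measure only the spread between these libraries, which may be technical. Library totals ran from 11130902 to 14138262 counts. SOX5, whose exons the plasmid carries, was at 2104 ± 258 CPM (counts scaled to the library size, mean ± SD, n = 3) with overexpression and 35.8 ± 5.41 CPM in NC, in the direction of the labels. All 10 hepatocyte and hepatoma markers were at 10 CPM or more, and of 11 markers of leukocytes, fibroblasts, endothelium and bile duct, PECAM1 and SOX9 were, with the summed level of the 11 at 206 to 231 CPM with overexpression and 208 to 266 CPM in NC. NC replicate 1 stood apart in its mitochondrial share, 9.29% of counts, against 6.32% to 7.04% in the other 5 libraries. Fold changes of named genes that moved by more than 1.5 times without that library are given both ways.

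A C2H2 zinc finger is a short fold held by a zinc ion, and proteins with a row of such fingers read DNA through them. Many of these proteins in primates start with a KRAB domain, which binds the corepressor TRIM28. TRIM28 in turn brings in the histone methyltransferase SETDB1 and heterochromatin proteins, and many of the target sequences are retrotransposons. The genes arose by repeated tandem duplication, which is why they stand in clusters and resemble each other.

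In the coding sequence of 1 transcript per gene, 243 of the 244 protein-coding genes held at least 1 finger. The median was 12 fingers, the highest number was 36 in ZNF208, and there were 3075 fingers in all. A KRAB A box was found in 206 genes and not in 38. Adjacent fingers are joined by a short linker that is among the most conserved stretches of the family. Linkers were found by a pattern that sets most of the amino acids of the stretch. Part of the resemblance among them was therefore fixed in advance, and linkers of another form were not counted. Of 1790 linker stretches of 30 bases in 232 genes, 1249 were distinct, and 37.5% of the stretches were found unchanged in more than 1 gene. The first linker found in each of 6 genes described below is printed 5′ to 3′ on the coding strand, from GRCh38. The 18 bases that encode the linker are in capitals.

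ZNF146 (chr19:36236720-36236749, plus strand): cacACTGGAGAAAAACCTTTTgagtgtaaa
ZNF585B (chr19:37186634-37186663, minus strand): catAGTGGAGAAAAACCATATgaatgcaat
ZNF91 (chr19:23362088-23362117, minus strand): cacACTGGAGAGAAACCCTACaaatgtgaa
ZNF331 (chr19:53577017-53577046, plus strand): catACTGGTGAGAAACCTTATgaatgtaaa
ZNF468 (chr19:52841472-52841501, minus strand): cacACTGGTGAGAAACCTTACaagtgtaat
ZNF264 (chr19:57211854-57211883, plus strand): cacACTGGGGAGAGGCCCTATgagtgcatg

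The capitals of ZNF91 were the most frequent form among the linkers found, with 177 copies in 46 genes. The whole stretch of ZNF91 stood in 7 genes, that of ZNF331 in 5 and that of ZNF468 in 4, whereas those of ZNF146, ZNF585B and ZNF264 stood in 1 gene each. Sharing over a whole transcript was counted in another way, per gene and without stretches found in more than 20 other genes. It therefore cannot be set against the share of linkers. The median gene shared 5.18% of its stretches of 31 bases with a gene that it did not overlap, and 25 genes shared more than 20%, up to 51.2% in ZNF443, most of it with ZNF799. In addition, 177 of the genes overlapped another gene of the table, 105 of them on the same strand and 127 on the opposite one. How the authors' counting treated strand and reads that match several genes is not given in the sources used here, so counts of these genes are uncertain to that extent.

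The zinc finger genes were expressed at low levels beside other genes with enough counts for a test. Levels between genes are given per length, as CPM per kilobase of merged exon (RPKM), averaged over the 6 libraries. The median of the 247 genes was 1.71 RPKM, the lower quartile 0.759 and the upper quartile 3.09. Among the 218 genes with enough counts for a test, the median was 1.94 RPKM and 9.26 CPM, against 4.76 RPKM and 22.5 CPM over all 15055 genes tested. The 216 tested ZNF genes of other chromosomes had medians of 2.81 RPKM and 15.4 CPM. Enough counts for a test were found in 88.3% of the zinc finger genes and in 29.6% of all genes of the table. Together the zinc finger genes took 0.319% to 0.336% of the counts of a library. The level was spread over many genes: the 5 highest held 16.2% of the summed CPM, and 37 genes were needed to reach 50% of it.

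ZNF146, a protein made almost only of fingers and without a KRAB domain, had the highest level by far, at 45.9 RPKM. It was followed by ZNF787 at 26.9, ZNF444 at 13.0, ZNF93 at 11.2 and ZNF428 at 9.51 RPKM. ZNF444 is a SCAN domain protein, and ZNF93 is a KRAB protein that represses LINE retrotransposons. Of these 5, a KRAB A box was found in ZNF93 only, although 206 of the 244 protein-coding genes held one.

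**Figure D1:**
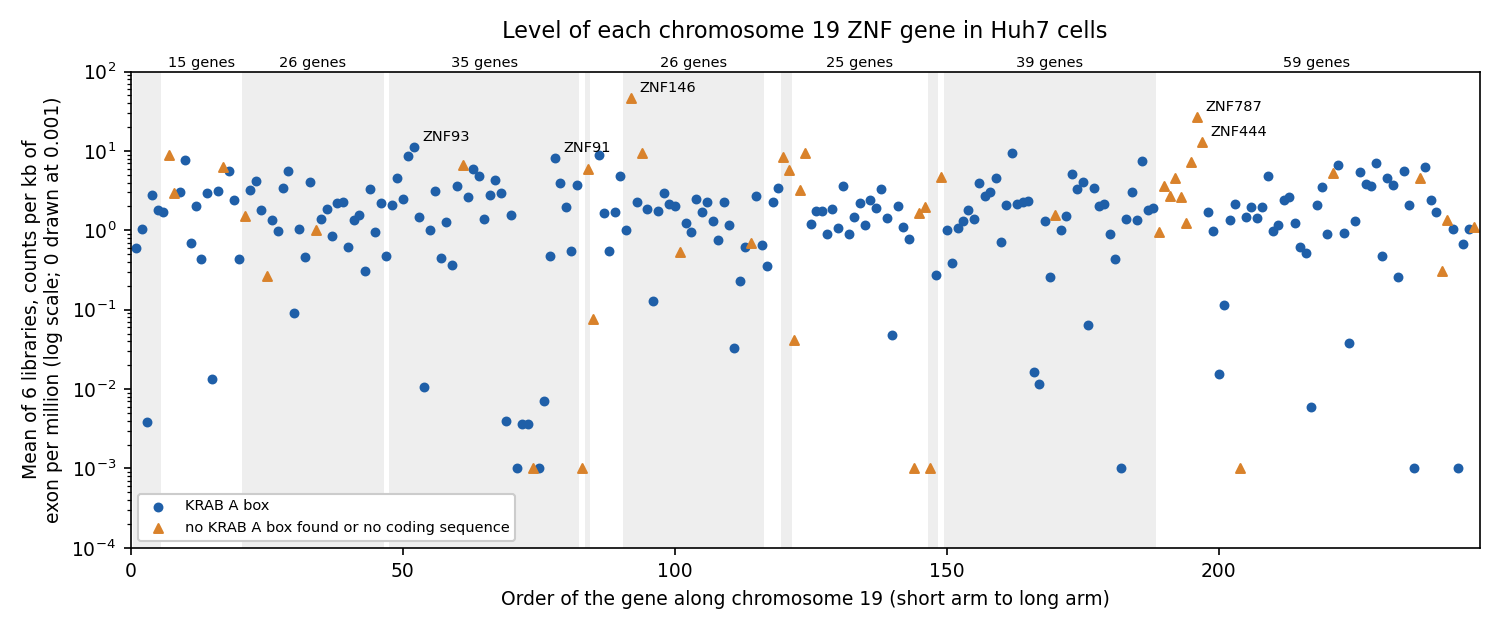
Mean level over 6 libraries (CPM per kilobase of exon, log scale, 0 drawn at 0.001) of the 247 chromosome 19 ZNF genes in their order along the chromosome, with shading that alternates between position clusters and the size of clusters of 15 or more genes above. Circles mark genes with a KRAB A box and triangles those without one or without a coding sequence; the 3 highest genes are triangles, and a run of genes near order 70 to 76 lies at or near 0.

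At the other end, 29 genes were not tested for low counts. Of these, 10 had 0 counts in every library: ZNF676, ZNF492, ZNF99, ZNF536, ZNF285B, ZNF541, ZNF677, ZNF835, ZNF135 and ZNF132. A count of 0 allows a level of up to 0.212 to 0.277 CPM in a library (3 counts, counting error only). The other 19 had a mean of at most 0.808 CPM, the value of ZNF114. ZNF154, a gene known for promoter methylation in tumors, was among them with 1, 4 and 1 counts in the overexpression group and 1, 9 and 0 in NC. The low genes were not scattered evenly. 6 neighbours in a row from ZNF676 to ZNF728 (ZNF676, ZNF729, ZNF98, ZNF492, ZNF99 and ZNF728, at chr19:22179091-23003176) had 3 counts in all over the 6 libraries. ZNF257 just before them was at 7.88 CPM, and ZNF208 before it was at 0.0272 CPM. ZNF730 and ZNF91 after the run were at 1.56 and 84.2 CPM. Genes among the 6 shared 31-base stretches with genes that they did not overlap, such as 48.0% in ZNF98, 40.4% in ZNF492, 24.6% in ZNF729 and 22.1% in ZNF676. The part of read sharing in the low counts was not tested. This run was picked after its values were seen.

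The comparison of overexpression with NC asked whether any of these genes differed with hsa_circ_0098181. None of the 218 tested genes passed an adjusted p of 0.05 in either direction (edgeR quasi-likelihood test, Benjamini-Hochberg over 15055 genes, lowest adjusted p 0.797), where 0.0399% of all genes passed, 0.0266% as higher and 0.0133% as lower. DESeq2 called 0 of them as well. An unadjusted p under 0.05 was found in 12 zinc finger genes, 4 higher and 8 lower, and in 7 when overexpression replicate 3 was left out. The share of 12 genes, 5.50%, stood beside 5.5% of all genes tested. By direction the shares were 1.83% higher and 3.67% lower, beside 2.42% and 3.08% of all genes. DESeq2 gave 14 genes at that level. The 3 overexpression libraries lay above the 3 NC libraries in 13 zinc finger genes, 5.96% beside 6.4% of all genes, and below them in 14, 6.42% beside 6.5%. The shares of zinc finger genes were thus near those of all genes on each count.

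The sizes of the fitted differences were small. The median log2 fold change, overexpression minus NC, was -0.040 over the 218 genes and 0.0023 over all genes tested, with an interquartile range of the zinc finger genes from -0.16 to 0.13. Fitted values were above 0 in 97 genes and below 0 in 121. Without NC replicate 1 the median was -0.0070. In 176 genes, or 80.7%, the 95% interval of the log2 fold change lay inside -1 to 1, so that a change of 2-fold or more lay outside the interval. The summed level of the genes was 3197, 3249 and 3291 CPM in the overexpression libraries and 3441, 3261 and 3376 CPM in NC. NC replicate 2 fell inside the range of the overexpression libraries, and the groups overlapped.

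**Figure D2:**
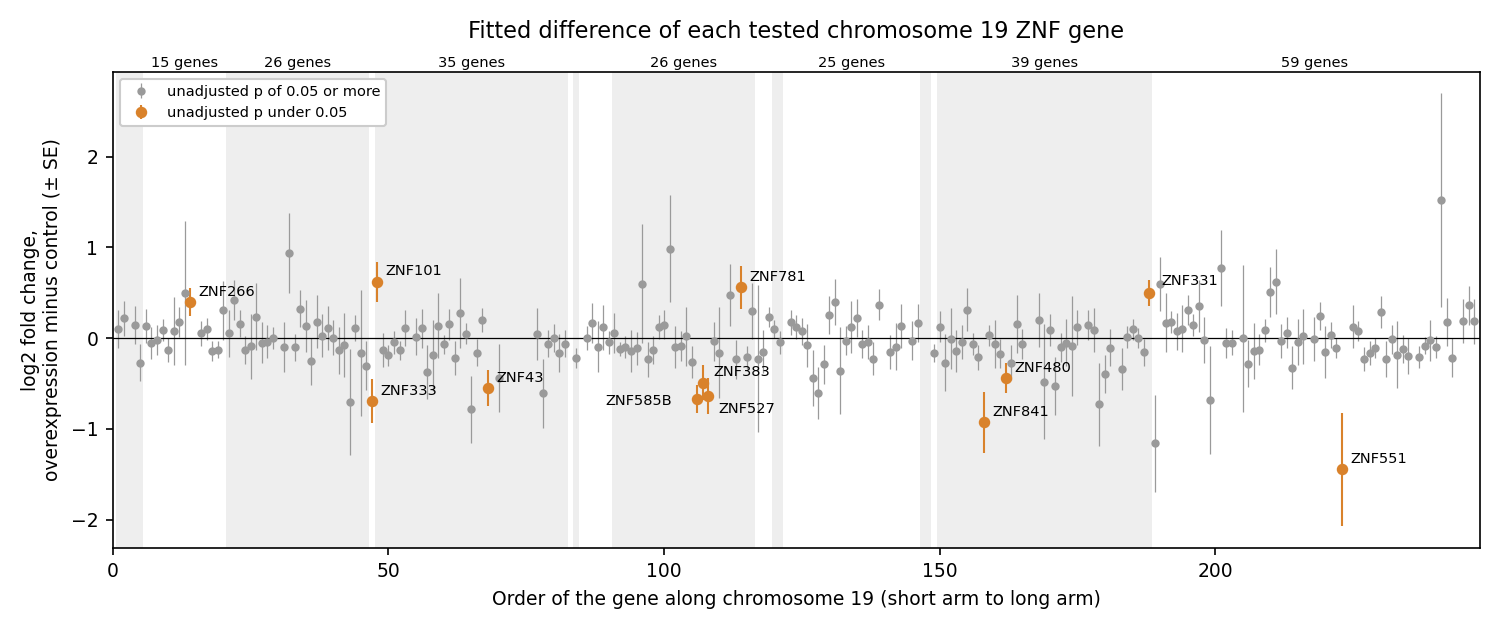
Fitted log2 fold change, overexpression minus control, with its standard error for each of the 218 tested chromosome 19 ZNF genes, in their order along the chromosome with shading by position cluster. The 12 genes with an unadjusted p under 0.05 are named. 3 of the 8 lower ones (ZNF585B, ZNF383 and ZNF527) follow each other in the order of these ZNF genes, in the cluster of 26. No gene passed an adjusted p of 0.05.

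The 12 genes with the smallest p are given with their single values, although their number is what the background share gives. ZNF585B, a KRAB gene with 21 fingers, had the lowest p of the family. It was at 12.4, 13.2 and 14.1 CPM with overexpression and at 25.5, 19.7 and 17.9 CPM in NC. All overexpression libraries lay below all NC libraries, with a log2 fold change of -0.67 (SE 0.16, adjusted p = 0.797, edgeR). ZNF383 next to it was at 10.1, 6.64 and 10.5 CPM against 13.2, 12.5 and 12.4 CPM in NC. The groups again did not overlap, and the log2 fold change was -0.49 (SE 0.19), or -0.31 without overexpression replicate 2. The annotated intervals of ZNF585B and ZNF383 overlap on opposite strands, and strand handling in the counting is not given, so the 2 genes cannot be counted as independent. ZNF527, the next of the chosen ZNF genes along the chromosome, overlaps no other gene. It was at 3.33, 4.07 and 3.88 CPM with overexpression and at 6.55, 6.05 and 5.02 CPM in NC, a log2 fold change of -0.64 (SE 0.20).

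ZNF43, a KRAB gene of the cluster on the short arm, was at 16.8, 27.9 and 17.3 CPM against 30.5, 31.7 and 28.6 CPM in NC. Overexpression replicate 2 came close to the NC libraries without reaching them, and the log2 fold change was -0.55 (SE 0.20), or -0.83 without that library. ZNF480 was at 30.4, 43.8 and 42.7 CPM against 61.1, 50.8 and 46.5 CPM in NC, also without overlap, with a log2 fold change of -0.44 (SE 0.17), or -0.29 without overexpression replicate 1. ZNF333, which stands apart from the other chosen ZNF genes, was at 3.89, 4.71 and 3.88 CPM against 6.83, 4.85 and 8.56 CPM in NC. Its nearest libraries, overexpression replicate 2 and NC replicate 2, differed by little, and the log2 fold change was -0.70 (SE 0.24). ADGRE2 overlaps ZNF333 on the opposite strand, and the value was also -0.70 when the counts of overlapping genes were summed.

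Of the 4 higher genes, ZNF331, an imprinted gene, had the lowest p. It was at 17.3, 22.7 and 19.5 CPM with overexpression and at 15.7, 12.5 and 13.99 CPM in NC, with a log2 fold change of 0.50 (SE 0.15, adjusted p = 0.797, edgeR). ZNF266 was at 20.5, 17.1 and 17.3 CPM against 14.5, 11.3 and 15.9 CPM in NC, a log2 fold change of 0.40 (SE 0.16). Both genes overlap no other gene, and their groups did not overlap. ZNF781 was at 2.97, 3.35 and 2.75 CPM against 2.31, 2.21 and 1.65 CPM in NC, a log2 fold change of 0.56 (SE 0.24). ZNF781 lies inside the interval of ZFP30 on the same strand, and the value was -0.091 when the counts of genes that overlap it were summed with its own.

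The remaining 3 of the 12 had groups that overlapped, and they are named here after their values were seen. ZNF101 was at 17.8, 12.1 and 19.7 CPM against 9.69, 13.4 and 9.13 CPM in NC (log2 fold change 0.62, SE 0.22). ZNF841 was at 5.73, 10.8 and 10.3 CPM against 15.4, 24.9 and 10.7 CPM in NC (log2 fold change -0.93, SE 0.34), and the value was -0.54 without NC replicate 2. It was -0.52 when the counts of genes that overlap ZNF841 were summed with its own. ZNF551 had the most negative fold change of the family, -1.45 (SE 0.62), which came from 1 library. It was at 1.91, 2.28 and 2.91 CPM with overexpression and at 2.77, 2.73 and 13.7 CPM in NC. Without NC replicate 3 the log2 fold change was -0.22.

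**Figure D3:**
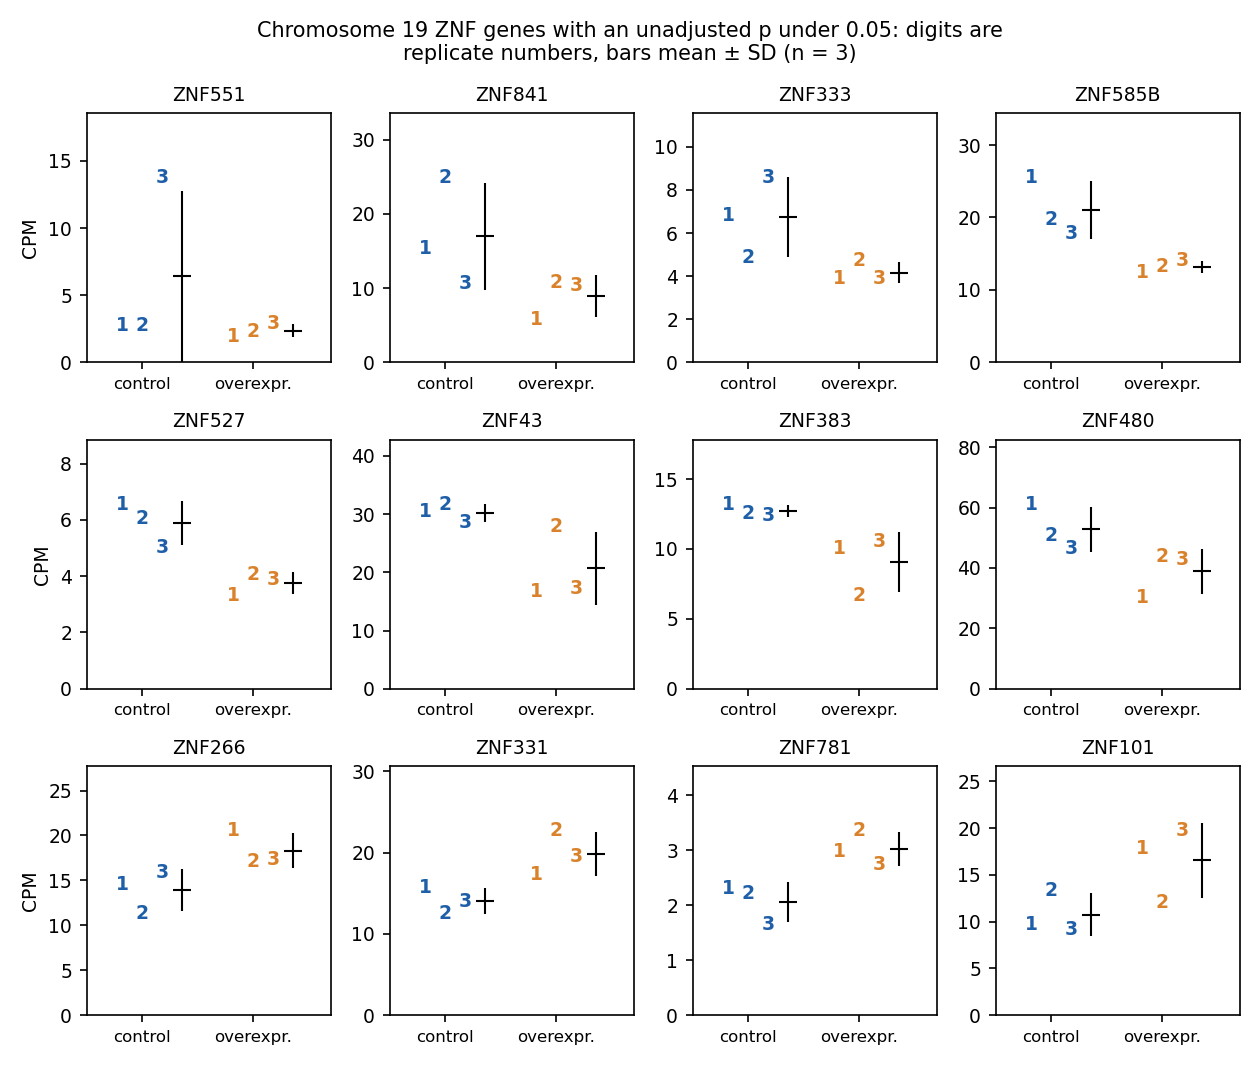
CPM of the 12 chromosome 19 ZNF genes with an unadjusted p under 0.05, one panel per gene ordered by log2 fold change, with control libraries on the left and overexpression libraries on the right. Each digit is a library at its replicate number, and the bar is the mean ± SD (n = 3), cut at 0. In 9 panels the groups do not overlap, and in ZNF551 the control mean is set by replicate 3.

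Besides ZNF551, 2 genes had a log2 fold change beyond 1 in size, and both were spread widely inside a group. ZNF497 was at 3.19, 2.07 and 0 CPM with overexpression and at 1.75, 0.0852 and 0.0823 CPM in NC. Its fitted value of 1.52 (SE 1.18) ranged from 0.78 to 4.26 as single libraries were left out, with 4.26 without NC replicate 1. ZNF628 was at 1.84, 3.14 and 1.78 CPM against 9.14, 1.79 and 4.36 CPM in NC, and its fitted value of -1.16 (SE 0.53) was -0.44 without NC replicate 1. Both were also named after their values were seen. In each of them libraries of both groups fell in the same range.

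Other genes without overlap between the groups had fold changes that did not reach an unadjusted p of 0.05. On the higher side ZNF579 was at 13.2, 15.1 and 14.9 CPM against 10.8, 4.94 and 12.8 CPM in NC (log2 fold change 0.59, SE 0.30), and the value was 0.28 without NC replicate 2. ZNF235 (0.37, SE 0.17, and 0.24 without overexpression replicate 2), ZNF581 (0.31, SE 0.17, and 0.16 without NC replicate 1), ZNF814 (0.29, SE 0.18, and 0.18 without overexpression replicate 2) and ZNF416 (0.24, SE 0.15) were smaller. Summed with the genes that overlap them, ZNF235 and ZNF814 had log2 fold changes of -0.014 and -0.12. On the lower side ZNF586 had a log2 fold change of -0.23 (SE 0.13) and ZNF607 of -0.21 (SE 0.12).

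Of the 5 genes with the highest levels, none had an unadjusted p under 0.05. ZNF146 was at 182, 178 and 187 CPM with overexpression and at 204, 194 and 198 CPM in NC. The 3 overexpression libraries lay below the 3 NC libraries by a log2 fold change of -0.12 (SE 0.08, adjusted p = 0.797, edgeR), with a 95% interval from -0.30 to 0.05. ZNF787 was at 102, 105 and 104 CPM against 79.1, 108 and 95.3 CPM in NC (log2 fold change 0.14, SE 0.12), and the fold change was 0.04 without NC replicate 1. ZNF444 was at 106, 102 and 109 CPM against 41.8, 107 and 99.0 CPM in NC. Here NC replicate 1 was low, and the log2 fold change of 0.35 (SE 0.29) was 0.04 without it. ZNF93 (-0.13, SE 0.11) and ZNF428 (0.12, SE 0.13) had log2 fold changes of similar size with overlapping groups, which were -0.05 and 0.05 without that library.

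Several members of the family have a known role. ZNF91 represses SVA retrotransposons. It was at 101, 50.4 and 48.3 CPM with overexpression and at 143, 54.2 and 108 CPM in NC, so that both groups held libraries near 50 and near 100 CPM. Its log2 fold change was -0.61 (SE 0.38), with -0.28 when NC replicate 1 was left out and -1.04 when overexpression replicate 1 was. ZNF274, which brings SETDB1 to the zinc finger gene clusters themselves, was at 47.1, 54.3 and 51.8 CPM against 53.3, 53.3 and 55.4 CPM in NC. The groups overlapped, with a log2 fold change of -0.08 (SE 0.09) and a 95% interval from -0.30 to 0.14.

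ZNF350, a repressor that works with BRCA1, was at 8.35, 6.92 and 8.97 CPM with overexpression and at 8.21, 6.98 and 9.71 CPM in NC (log2 fold change -0.04, SE 0.19). ZNF675, an inhibitor of signaling through TRAF proteins, had a log2 fold change of -0.06 (SE 0.15), and ZNF568, a regulator of early development in mice, one of -0.09 (SE 0.16). ZNF224, a repressor of the aldolase A gene, was at 9.27, 20.3 and 19.9 CPM against 17.9, 15.4 and 12.1 CPM in NC (0.12, SE 0.29). ZNF420, a negative regulator of the p53 response, was at 12.9, 6.57 and 11.1 CPM against 6.09, 13.6 and 10.3 CPM in NC (0.02, SE 0.33). In all 5 genes the groups overlapped. Without NC replicate 1 the fold changes were 0.09 in ZNF675, -0.15 in ZNF568, 0.26 in ZNF224 and -0.23 in ZNF420. ZNF224 and ZNF420 had a spread inside each group that was larger than the difference between the group means.

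Along the chromosome, the 247 genes fell into 16 clusters where a gap of more than 1 Mb between starts divides them, and 4 of these were single genes. 7 clusters of at least 15 genes held 225 genes. The cluster from ZNF628 to ZNF446 at the end of the long arm was the largest, with 59 genes, of which 53 were tested, with a median log2 fold change of -0.014. The 39 genes from ZNF175 to ZNF331 had a median of -0.067, and the 35 from ZNF101 to ZNF254 one of -0.061. The 26 genes from ZNF565 to ZNF573 (chr19:36182060-37817300), with ZNF585B, ZNF383 and ZNF527, had a median of -0.10. Here 4 of 25 tested genes (16%, beside 5.5% of all genes) had an unadjusted p under 0.05, 1 higher and 3 lower, and 2 of the 3 overlap each other. This cluster was picked after its values were seen. The remaining large clusters had medians of 0.083 (15 genes from ZNF557 to ZNF846), 0.0057 (26 genes from ZNF653 to ZNF791) and -0.027 (25 genes from ZNF575 to ZNF296).

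When the counts of each cluster were summed before the fit, none of 14 clusters passed an adjusted p of 0.05 (edgeR, lowest adjusted p 0.794). ZNF333 was the only one with an unadjusted p under 0.05, beside 5.5% of all genes tested. It is a cluster of 1 gene, already counted among the 12 genes above. The cluster from ZNF565 to ZNF573 was at 447, 413 and 435 CPM with overexpression and at 507, 448 and 465 CPM in NC. All overexpression libraries lay below the lowest NC library, the nearest by less than 1 CPM, and the log2 fold change of the sum was -0.13 (SE 0.09). The sums of the cluster from ZNF175 to ZNF331 also did not overlap, at 487, 509 and 484 CPM against 529, 534 and 511 CPM in NC (-0.09, SE 0.08), nor did the single genes ZNF333 and ZNF473. In none of the 14 tested clusters did the overexpression sums lie above all NC sums. They did so in 1 cluster that was too low to be tested, ZNF541 with ZNF114, at a mean of 0.808 CPM. Cluster sums without overlap were thus 4 lower and 1 higher. Among all single genes tested, 6.5% were lower and 6.4% higher without overlap. So few clusters cannot decide whether their sums lean to 1 side. Neighbouring tested genes had fold changes of the same sign in 109 of 217 pairs, or 50.2%. The longest run of 1 sign was 9 genes below 0, from ZNF587 to ZNF8, and the longest above 0 was 8 genes, from ZNF579 to ZNF444.

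**Figure D4:**
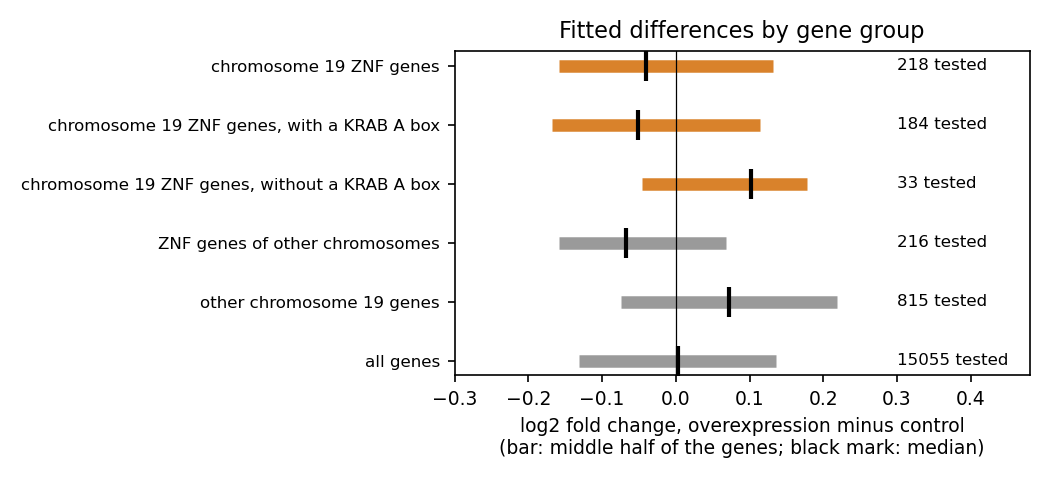
Median (black mark) and interquartile range (bar) of the fitted log2 fold changes, overexpression minus control, for the chromosome 19 ZNF genes, the same genes with and without a KRAB A box, ZNF genes of other chromosomes, other chromosome 19 genes and all genes tested. The medians run from -0.068 for ZNF genes of other chromosomes to 0.10 for genes without a KRAB A box, and 0 lies inside every bar.

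The protein class went with a small offset. The 184 tested genes with a KRAB A box had a median log2 fold change of -0.052, with 59.8% of them below 0, and the 33 without one had a median of 0.10, with 33.3% below 0. Leaving out NC replicate 1 gave medians of -0.025 and 0.048. The summed KRAB genes were at 2323 ± 50.8 CPM with overexpression and 2460 ± 108 CPM in NC, and the genes without the box at 916 ± 19.6 and 894 ± 34.8 CPM. The classes also differed in base composition: the median GC content of the transcripts was 41.8% with the box and 58.7% without it. The 216 tested ZNF genes of other chromosomes, with a median GC content of 45.0%, had a median fold change of -0.068, and the 815 other tested genes of chromosome 19, at 59.2% GC, one of 0.073. The part of GC content in these offsets was not tested. Neither class held a gene that passed an adjusted p of 0.05 (edgeR), and an unadjusted p under 0.05 was found in 11 genes with the box (5.98%) and 1 without (3.03%), beside 5.5% of all genes. Finger number showed a smaller offset, with a median of -0.067 in 69 genes of at least 15 fingers and -0.024 in 148 with fewer.

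In some zinc finger genes libraries of 1 group lay far apart. Among genes with a mean of at least 50 counts, the highest library of a group was at least 2-fold above the lowest, in 1 group or both, in 29 of 180 zinc finger genes (16.1%) and in 764 of 11747 other genes (6.50%). It was 17.99% in the ZNF genes of other chromosomes. At 3-fold the shares were 3.89% (7 genes), 2.00% and 5.82%. The median count of the zinc finger genes was 154, against 439 in the other genes and 240 in the ZNF genes of other chromosomes, and lower counts vary more by counting alone. These are descriptions with no test, and the part of depth was not tested.

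ZNF264, with 13 fingers and a KRAB A box, varied the most. It was at 1.20, 26.0 and 27.8 CPM with overexpression and at 23.4, 7.49 and 24.0 CPM in NC, which corresponds to 17, 365 and 344 counts and 254, 88 and 292 counts. Overexpression replicate 1 lay 23.1-fold below replicate 3, and the group means were 18.3 ± 14.9 and 18.3 ± 9.38 CPM. The gene overlaps no other, and it shared 5.98% of its 31-base stretches with other genes, 2.35% with ZNF805, which was at 2.97, 5.71 and 4.85 CPM with overexpression and at 4.80, 5.71 and 5.92 CPM in NC.

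ZNF468 was at 45.7, 50.4 and 13.7 CPM with overexpression and at 13.6, 49.9 and 52.9 CPM in NC, so that 1 library of each group was low. It overlaps ZNF28 on the same strand, which was at 38.1, 20.1 and 32.6 CPM and at 26.3, 41.0 and 26.6 CPM. Summed with the genes that overlap it, the widest ratio inside a group was 2.28, against 3.90 for ZNF468 alone. ZNF468 also shared 52.5% of its 31-base stretches with ZNF320. That gene was at 34.1, 35.3 and 35.1 CPM with overexpression and at 41.3, 32.0 and 23.0 CPM in NC. ZNF490 was at 1.13, 6.07 and 6.06 CPM with overexpression and at 1.11, 5.96 and 7.65 CPM in NC. Replicate 1 was low in both groups, and the ratio went from 6.91 to 1.79 when overlapping genes were added. Among them was ZNF791, which at 9.45 to 19.9 CPM exceeded ZNF490 itself. ZNF490 shared 54.9% of its 31-base stretches with CTD-2192J16.20, which overlaps it on the same strand. CTD-2192J16.20 was at 3.68, 0.357 and 0.162 CPM with overexpression and at 0, 0.426 and 0.823 CPM in NC. The part of read sharing in these spreads was not tested. The other 4 genes past 3-fold were ZNF570 with a ratio of 6.17, ZNF551 with 5.04, ZNF583 with 4.34 and ZNF415 with 3.32. Summed with their overlapping genes, ZNF551 (4.57) and ZNF583 (3.46) stayed past 3-fold, whereas ZNF570 (1.45) and ZNF415 (1.91) did not. These 7 genes were chosen for their spread, and their fold changes are not read as differences between the groups.

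**Figure D5:**
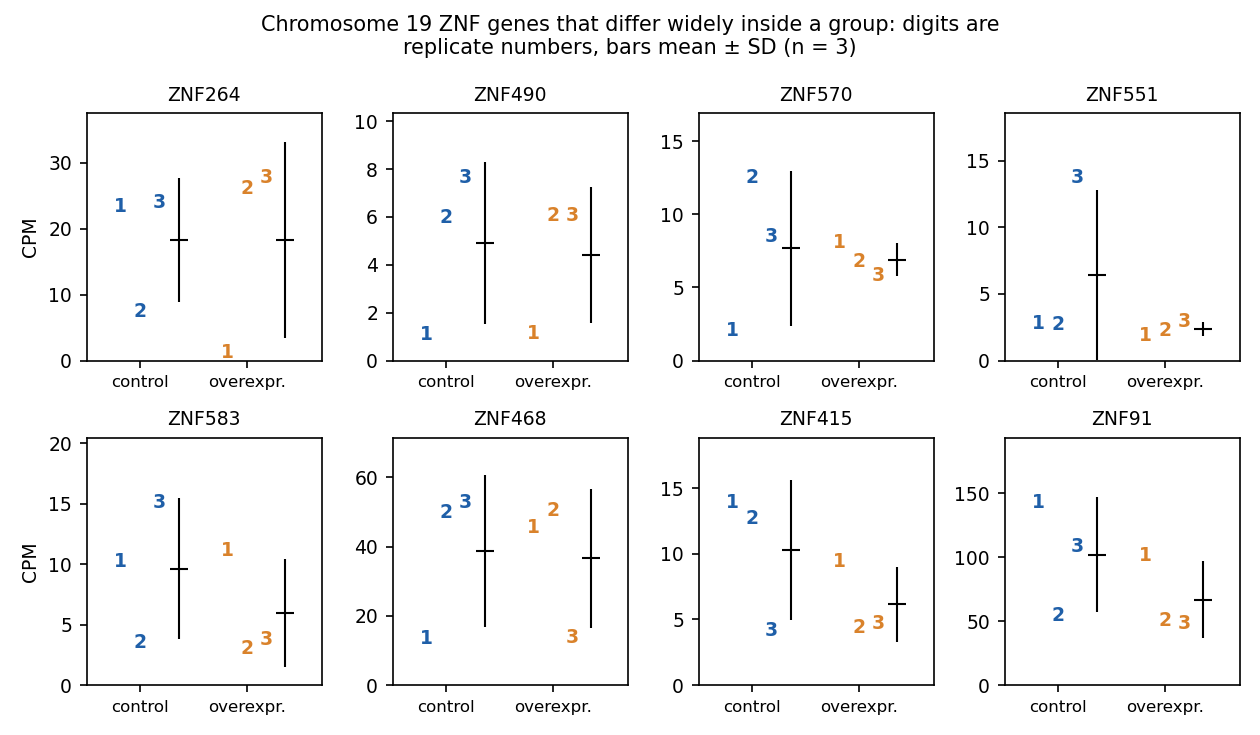
CPM of the 7 chromosome 19 ZNF genes whose highest library is at least 3-fold above the lowest in a group, and of ZNF91, with control libraries on the left and overexpression libraries on the right. Each digit is a library at its replicate number and the bar is the mean ± SD (n = 3), cut at 0. In ZNF264 overexpression replicate 1 and in ZNF468 control replicate 1 and overexpression replicate 3 lie far below the rest.

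The corepressor machinery that KRAB proteins recruit and its partners were read from a list of 38 genes. Of these 37 were tested, ZFP57 having 0 counts. None passed an adjusted p of 0.05 (edgeR), beside 0.0399% of all genes. An unadjusted p under 0.05 was found in 1 gene of the list (2.70%, beside 5.5% of all genes). This was ATRX, a chromatin remodeller of heterochromatin. The median log2 fold change of the list was -0.019, with 17 genes above 0 and 20 below. TRIM28 was at 276, 269 and 258 CPM with overexpression and at 222, 264 and 265 CPM in NC. The groups overlapped, with NC replicate 1 the lowest, and the log2 fold change of 0.10 (SE 0.10) was 0.02 without that library. SETDB1 was at 35.8, 38.7 and 39.8 CPM against 44.9, 43.6 and 37.4 CPM in NC (log2 fold change -0.14, SE 0.11, and -0.09 without NC replicate 1). ATRX was at 96.5, 109 and 112 CPM against 145, 122 and 116 CPM in NC (log2 fold change -0.27, SE 0.11, adjusted p = 0.797, edgeR), and the fold change was -0.17 without NC replicate 1. Its groups did not overlap, nor did those of MORC2, EHMT1 and SMARCAD1, all lower with overexpression. These 4 of 37 genes (10.8%) stood beside 6.5% of all genes, and 0 genes of the list lay higher without overlap, beside 6.4%.

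RefSeq promoters of 300 bases around the start were matched for 213 of the zinc finger genes. They had a median of 20 CpG and 60% GC, against 14 CpG and 58.3% over all 27305 promoters and 24 CpG and 62.7% in 211 ZNF genes of other chromosomes. The letters TATAAA on either strand stood in 4 of the 213, or 1.88%, against 11.95% of all promoters and 4.27% of the ZNF promoters of other chromosomes. The median was 20 CpG both in the 195 tested and in the 18 untested genes.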

How the data were processed

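RNA sequencing of 6 Huh7 libraries was analysed, 3 per group. Titles gave the group and replicate number of each. A single table was deposited by the authors, with raw whole-number read counts and FPKM per gene. Per the submitters' processing notes, reads were aligned with TopHat2 2.0.9 to hg38. The counting tool, strand handling and annotation release are not given in the sources used here. The deposited FPKM equalled the count per library total and 1 length per gene in 12792 of 12792 genes checked (tolerance 0.1%). They were used in 1 alternative only.

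Counts were fitted by the quasi-likelihood method of edgeR 4.0.16 (R 4.3.3, TMM normalization) with a two-sided test of the group. filterByExpr, set to a minimum count of 10, left 15055 genes, over which p-values were adjusted by Benjamini-Hochberg. CPM used TMM library sizes. The biological coefficient of variation was 16.1%. Library totals of 11130902 to 14138262 counts limit genes of a few CPM, and floors of 3 counts cover counting error only, since reads carried no molecular identifiers and several can come from 1 molecule. No library repeated another of its group (chi-square 11.0 to 22.9 per degree of freedom).

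GENCODE 29 (GRCh38) gave gene types, coding sequences and transcripts. It held 98.5% of the table's gene IDs and the same coordinates for 231 of the 247 genes. Fingers, linkers and the KRAB A box were found by patterns in the translated coding sequence, and degenerate or cut boxes can be missed. Sharing was counted over 31-base stretches found in at most 20 other genes. Promoters came from RefSeq (GRCh38.p14).

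Genes were named by rule: up to 8 in each direction with the largest fold change among tested genes with at least 1 CPM and groups without overlap, the 5 highest by RPKM, 10 with a known role, TRIM28, SETDB1 and SOX5. The study's methods name no test for the mRNA libraries. The genes and lists were chosen with earlier results of these data known. The alternatives were DESeq2 1.42.0, normalization by RLE or by the upper quartile, no filter beyond 1 count, a mean of at least 50 counts, limma 3.58.1 with trend on log2(FPKM + 1), where 3 or more libraries reached 1 FPKM, the replicate block, summed clusters, leaving out overlapping genes and leaving out each library. Summing overlapping genes was added after the data were seen.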

Additional observations from a re-analysis of the deposited data

How the results depend on the processing

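No zinc finger gene of chromosome 19 passed an adjusted p of 0.05 under any alternative run, summed clusters and genes without overlap included. No gene of the corepressor list did. Of 37 genes given with a fold change, 30 kept their sign under the alternatives that held them (12 to 14 per gene, since low genes miss some filters) and 7 did not. Over all genes, DESeq2 called 8 higher and 20 lower where edgeR called 4 and 2, and the replicate block left 2 higher. Leaving out each library in turn gave 1 to 7 higher and 2 to 9 lower. Zinc finger genes at an unadjusted p under 0.05 numbered 6 by limma on log2(FPKM + 1), on fewer genes, and 7 to 16 as each library was left out, the lowest without overexpression replicate 3. Their median log2 fold change then ran from -0.054 to -0.0070, the latter without NC replicate 1.

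With single libraries left out, log2 fold changes crossed 0 in ZNF420 (-0.23 to 0.31), ZNF224 (-0.059 to 0.41), ZNF350 (-0.15 to 0.090) and ZNF675 (-0.18 to 0.091). With overlapping genes summed they were -0.091 in ZNF781, -0.014 in ZNF235, -0.12 in ZNF814 and -0.12 in ZNF420. Why was not tested. Deviations from the group mean had correlations of -0.036, -0.023 and -0.031 between same-numbered libraries. With each mean taken over only 3 libraries, these values cannot decide whether same-numbered libraries were prepared together. The sources used here do not state it. The fit with the replicate block gave 12 zinc finger genes at an unadjusted p under 0.05 and a median of -0.036. The median standard error was 0.204 in the zinc finger genes and 0.156 over all genes, with the median level lower in the former, and the part of depth was not tested.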
